A study of Mus musculus with 25 samples.

Results

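The genes described here are 10 members of the mouse p53 response: Trp53 itself, the cell death genes Pmaip1, Bbc3 and Bax, the cell cycle and feedback genes Cdkn1a, Mdm2 and Ccng1, and the stress genes Zmat3, Trp53inp1 and Sesn2. They were chosen by name, on the observation in these data that Pmaip1 was higher in embryos treated with an inhibitor of the histone methyltransferase Dot1L. All 10 were found, among 35731 genes in the table of embryonic stem cells and 24062 in the table of embryos. Because the embryo contrast chose the members, their embryo values are given as a description without a test. The stated reason for the choice names neither the stem cell contrast nor the chromatin peaks. Earlier results of these data were known when it was made, so full independence from them cannot be shown.

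The series holds 25 libraries from mouse embryonic stem cells of the v6.5 strain and from 8-cell embryos. The stem cells were untreated and either wild type (3 RNA libraries) or carried a Dot1L knockout (2 RNA libraries). How the knockout was made, and from how many clones, is not given in the sources used here. The embryos had a wild-type genotype and came from a cross of B6D2F1 with Cast/EiJ. They were collected at 56 hours after fertilization in pools of 30 to 35. They had received either the vehicle DMSO (2 pools) or SGC0946, the Dot1L inhibitor (2 pools). The dose and the start of treatment are not given in the sources used here. Chromatin immunoprecipitation of histone H3 dimethylated (H3K79me2) or trimethylated (H3K79me3) at lysine 79 was done in the stem cells, with 2 libraries per mark and genotype and a matching input for each.

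p53, encoded by Trp53, is a transcription factor that is stabilised by DNA damage and other stresses and binds a paired half-site in the DNA of its target genes. Its targets include inducers of apoptosis, inhibitors of the cell cycle and its own antagonist Mdm2, a ubiquitin ligase that marks p53 for degradation. Dot1L methylates histone H3 at lysine 79, and the mark lies over the early part of transcribed genes. In mouse embryonic stem cells p53 is abundant, and mice without it can complete development.

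The promoter sequences of the members show where a p53 site lies in the 300 bases around the start of each gene (250 before it and 50 after). RefSeq windows on GRCm38.p6 were matched for 7 of the 10 members, all but Pmaip1, Zmat3 and Trp53inp1, in 10 windows. The p53 full site was searched on both strands as 2 adjacent half-sites with at most 1 mismatch in all, which could not fall on the C or the G of either half-site's core. It was found in 22 of 32851 windows (0.0670%) and in 22 of 27025 genes (0.0814%), among them Cdkn1a and Ccng1. Cdkn1a has a pair of annotated starts, and the site lies in the window of the upstream one only. It is shown together with the downstream window, which lacks it, because the methylated regions shared by both wild-type libraries, described further on, begin after the downstream start. Sequences are written 5′ to 3′ on the strand of the gene, and capitals mark the p53 site.
Cdkn1a, upstream start, chr17:29090729-29091028, plus strand: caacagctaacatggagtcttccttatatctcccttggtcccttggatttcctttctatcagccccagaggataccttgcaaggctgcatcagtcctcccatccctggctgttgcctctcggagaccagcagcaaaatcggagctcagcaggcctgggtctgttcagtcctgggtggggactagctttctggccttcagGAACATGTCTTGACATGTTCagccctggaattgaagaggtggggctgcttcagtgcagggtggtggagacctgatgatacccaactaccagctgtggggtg
Cdkn1a, downstream start, chr17:29093519-29093818, plus strand: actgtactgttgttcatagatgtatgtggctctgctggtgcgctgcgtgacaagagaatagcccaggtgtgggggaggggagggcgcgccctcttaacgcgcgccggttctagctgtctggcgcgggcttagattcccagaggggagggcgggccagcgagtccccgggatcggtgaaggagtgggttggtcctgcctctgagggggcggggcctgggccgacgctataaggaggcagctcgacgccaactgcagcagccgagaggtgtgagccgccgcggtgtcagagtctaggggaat
Ccng1, chr11:40755237-40755536, minus strand: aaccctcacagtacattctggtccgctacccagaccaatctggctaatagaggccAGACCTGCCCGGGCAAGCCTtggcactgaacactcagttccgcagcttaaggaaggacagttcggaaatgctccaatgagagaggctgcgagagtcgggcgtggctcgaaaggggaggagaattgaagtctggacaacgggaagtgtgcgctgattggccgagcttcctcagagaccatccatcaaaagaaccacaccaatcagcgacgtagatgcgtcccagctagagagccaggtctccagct
The site of Cdkn1a, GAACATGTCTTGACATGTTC, began 51 bases before the start (position -51) and that of Ccng1, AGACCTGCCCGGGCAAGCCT, at position -195. Each had 1 mismatch to the full site. The sequence TGATGNAA, the recognition element of the stress factor ATF4, occurred on either strand in 3.97% of all windows and 4.51% of genes. It occurred in 0 of the 7 members with a window, which are too few to set against that share. Pmaip1 is not among the 7. Trp53, Bbc3, Bax, Mdm2 and Sesn2 held no p53 match in their windows, which says only that these letters are not there.

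The stem cell libraries held 26860527 to 33755064 estimated counts and the embryo libraries 24950199 to 32479590 counts. Dot1l transcript was 104, 96.8 and 99.1 CPM (counts scaled to the size of the library) in the wild-type stem cells and 81.4 and 71.6 CPM in the knockout (log2 fold change -0.39 ± 0.059 SE, adjusted p = 1.6e-04 by edgeR's quasi-likelihood test with Benjamini-Hochberg adjustment). Transcript thus remained in the libraries labelled knockout, and the KO peak lists gave 0 members with a peak for either mark. Those lists held few peaks over any gene: 16 and 12 for H3K79me2, against 66834 and 64084 in wild type. For H3K79me3 they held 178 and 328, against 19800 and 7338. The 0 is therefore not particular to the members. Of 8 fibroblast markers, a list of possible feeder cells, the summed level was 164 to 210.4 CPM in wild type and 228 to 273 CPM in the knockout. Col1a1 was at 41.2 to 59.3 CPM in wild type and 71.3 to 89.2 CPM in the knockout, and Acta2 at 11.9 to 16.5 and 29.7 to 32.9 CPM. Postn and Thy1 were also higher in both knockout libraries than in all wild-type ones, Col1a2 and Col3a1 overlapped between the groups, and Dcn and Lum stayed at or below 1.47 and 0.276 CPM. Of 11 markers of pluripotent cells and 8-cell embryos the sum was 2985 to 3044 CPM in wild type and 2314 to 2485 in the knockout. It was 2523 to 2590 CPM in DMSO embryos and 1834 to 2302 in inhibitor embryos. Nanog was at 492 to 499 CPM in wild type and 231 to 256 CPM in the knockout. Pou5f1, Zfp42, Klf5, Tfap2c, Gata3 and, narrowly, Esrrb were also lower in both knockout libraries. Sox2 and Klf4 overlapped, and Klf17 and Cdx2 were higher, at or below 3.03 CPM. Pou5f1, Nanog, Esrrb, Zfp42 and Klf5 were lower in both inhibitor pools, and the other markers overlapped there. Cumulus or granulosa markers summed to 0.882 to 1.72 CPM in the embryos, with Fshr, Inhba and Ptx3 at 0 in all 4 pools. The part of these markers in the results below was not tested. In these bulk libraries, fewer cells of a type and less RNA per cell cannot be told apart. Nothing in the labels says that replicates were separate cultures or litters, so p-values measure only the spread between these samples, which may be technical.

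In Dot1L knockout stem cells the members did not move in one direction. Pmaip1 and Cdkn1a rose, Trp53, Bax, Mdm2, Zmat3 and Sesn2 fell, and Bbc3, Ccng1 and Trp53inp1 did not pass the test. Of all 19561 genes tested, 22.3% were called higher and 21.4% lower at an adjusted p under 0.05. With upper-quartile scaling, higher calls made up 63.4% of calls over all genes instead of 51.0%, and the members split into 4 higher and 4 lower. The median log2 fold change was -0.11 over the members and 0.00 over all genes tested. Knockout and wild-type libraries did not overlap for any of the 10 members, 4 higher and 6 lower, where 31.9% and 30.6% of all genes tested were separated in those directions. The largest change was that of Pmaip1.

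**Figure D1:**
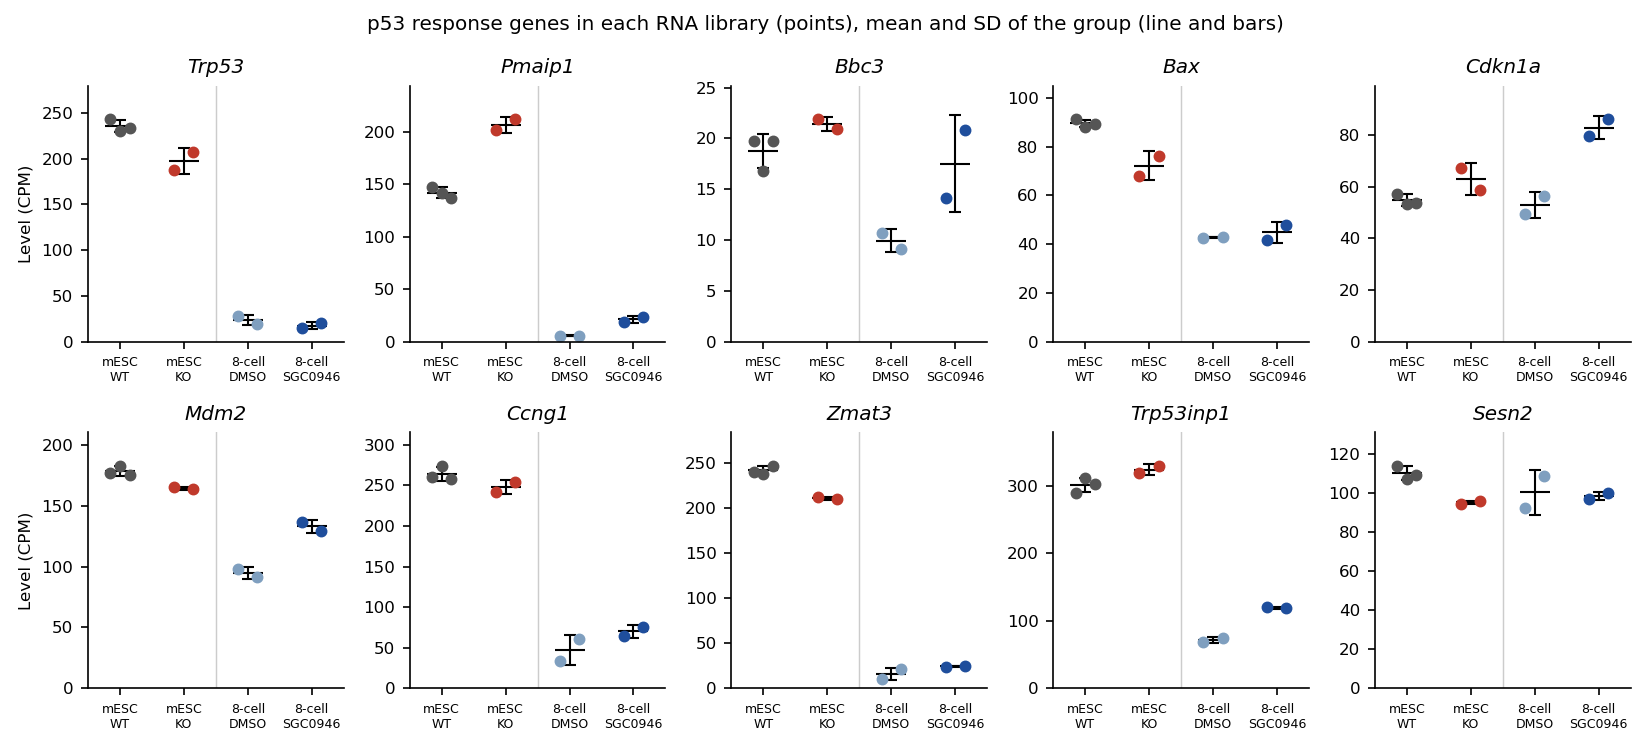
Level of each member in every RNA library, in CPM on a linear axis that starts at 0. Points are single libraries of wild-type and knockout stem cells and of DMSO and SGC0946 embryos, and lines and bars are the mean and SD of the group. Pmaip1 stands at 137 to 148 CPM in wild-type and 201 to 212 CPM in knockout stem cells, and at 5.24 to 6.0 CPM in DMSO and 19.1 to 24.0 CPM in inhibitor embryos.

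Trp53, the gene of p53 (ENSMUSG00000059552), was at 243, 229.7 and 233 CPM in wild type and at 187 and 207 CPM in the knockout. Both knockout libraries lay below all 3 wild-type libraries, and Trp53 fell by 0.25 on the log2 scale (SE 0.049, adjusted p = 9.9e-04, edgeR). Among the genes of apoptosis, Pmaip1 (ENSMUSG00000024521) encodes Noxa, a BH3-only protein that binds and neutralises the survival factor Mcl1. It was at 148, 142 and 137 CPM in wild type and at 201 and 212 CPM in the knockout. The groups were far apart against their spread, with 142 ± 5.45 CPM (SD, n = 3) in wild type and 207 ± 7.34 CPM (SD, n = 2) in the knockout. Its log2 fold change was 0.54 ± 0.045 (SE), with an adjusted p of 7.8e-07 in edgeR. Bbc3 (ENSMUSG00000002083) encodes Puma, a BH3-only protein that binds all of the main survival proteins of the BCL2 family. It was at 19.8, 16.8 and 19.8 CPM in wild type and at 21.9 and 21.0 CPM in the knockout. The knockout libraries were the higher ones, but the log2 fold change of 0.19 ± 0.079 (SE) did not pass the test (adjusted p = 0.0644, edgeR). It passed with upper-quartile scaling (0.0181), and without wild-type replicate 2, the lowest library, the change was 0.11 (0.258). Bax (ENSMUSG00000003873), which forms the pore in the outer mitochondrial membrane, was at 91.2, 88.1 and 89.4 CPM in wild type and at 68.1 and 76.3 CPM in the knockout. It fell by 0.31 on the log2 scale (SE 0.054, adjusted p = 4.8e-04, edgeR). Pmaip1, upstream of the pore, and Bax, the pore itself, thus moved in opposite directions.

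Among the genes of the cell cycle and of feedback, Cdkn1a (ENSMUSG00000023067) encodes p21, an inhibitor of cyclin-dependent kinases. It was at 57.4, 53.5 and 53.7 CPM in wild type and at 67.5 and 58.6 CPM in the knockout. It rose by a log2 fold change of 0.20 ± 0.062 (SE, adjusted p = 0.0183, edgeR), and knockout replicate 1 was the highest library. Without that library the change was 0.09 and no longer passed (adjusted p = 0.229), and the call was also lost without wild-type replicate 2 (0.0707) or 3 (0.0698). Mdm2 (ENSMUSG00000020184), the ligase that restrains p53, was at 177, 183 and 175 CPM in wild type and at 165 and 164 CPM in the knockout. It fell by 0.12 on the log2 scale (SE 0.041, adjusted p = 0.0326, edgeR). With upper-quartile scaling the Mdm2 change was -0.05 (adjusted p = 0.315), and without wild-type replicate 1, 2 or 3 the adjusted p was 0.0681, 0.127 or 0.0600. Ccng1 (ENSMUSG00000020326), cyclin G1, which directs a phosphatase to Mdm2, was at 260.0, 274 and 258 CPM in wild type and at 242 and 254 CPM in the knockout. The knockout libraries were the lower ones, by a margin that did not pass the test (log2 fold change -0.09 ± 0.043 SE, adjusted p = 0.101, edgeR), and without knockout replicate 2 it did (0.0223). With upper-quartile scaling the Ccng1 change was -0.03 and without knockout replicate 1 it was -0.06.

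Among the stress genes, Zmat3 (ENSMUSG00000027663) encodes an RNA-binding zinc finger protein that acts on splicing. It was at 241, 238 and 247 CPM in wild type and at 212 and 210.2 CPM in the knockout. The groups were clearly separated, and Zmat3 fell by 0.20 on the log2 scale (SE 0.039, adjusted p = 0.00123, edgeR). Trp53inp1 (ENSMUSG00000028211), a nuclear protein that binds p53 and the kinases acting on it, was at 289.5, 311 and 303 CPM in wild type and at 318 and 329.5 CPM in the knockout. The rise of 0.10 ± 0.042 (SE, log2) did not pass the test (adjusted p = 0.0598, edgeR). It passed with upper-quartile scaling (0.0049), with at least 10 counts required in every library (0.0491) and without knockout replicate 1 (0.0306). Sesn2 (ENSMUSG00000028893), sestrin 2, which restrains mTORC1 when leucine is short, was at 114, 107 and 109.6 CPM in wild type and at 94.7 and 96.0 CPM in the knockout. It fell by 0.21 on the log2 scale (SE 0.046, adjusted p = 0.00249, edgeR). The changes of most members were thus small, and the median size of a called change over all genes was 0.44 on the log2 scale.

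In the embryos, no gene of 14351 tested (0%) passed an adjusted p under 0.05 in edgeR. An unadjusted p under 0.05 was reached by 1169 genes, and DESeq2 called 126. The smallest adjusted p was 0.203. Between replicate pools the biological coefficient of variation was 0.442, against 0.0468 in the stem cells. The members' values follow as a description.

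Trp53 was at 28.1 and 19.8 CPM in the DMSO pools and at 15.0 and 20.1 CPM with inhibitor, and the groups overlapped (log2 fold change -0.45 ± 0.31 SE). Without DMSO replicate 1 the Trp53 value was -0.18, without inhibitor replicate 1 it was -0.25, and without DMSO replicate 2 or inhibitor replicate 2 it was -0.68. Pmaip1 was at 6.0 and 5.24 CPM with DMSO and at 19.1 and 24.0 CPM with inhibitor. The inhibitor pools lay well above both controls, at 502 and 790 reads against 163 and 139. The log2 fold change of Pmaip1 was 1.94 ± 0.35 (SE) and ran from 1.77 to 2.10 over the alternatives. Bbc3 was at 10.7 and 9.12 CPM with DMSO and at 14.1 and 20.9 CPM with inhibitor, a log2 fold change of 0.82 ± 0.35 (SE). Bax was at 42.7 and 43.0 CPM with DMSO and at 41.9 and 47.8 CPM with inhibitor (0.07 ± 0.21 SE). Of the 3 death genes, the BH3-only pair was separated between the groups and Bax was not.

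Cdkn1a was at 49.5 and 56.6 CPM with DMSO and at 79.8 and 86.1 CPM with inhibitor (log2 fold change 0.64 ± 0.18 SE). Mdm2 was at 98.2 and 91.4 CPM with DMSO and at 137 and 129 CPM with inhibitor (0.49 ± 0.16 SE). Both stood higher in each inhibitor pool than in each control pool. Ccng1 was at 34.2 and 60.2 CPM with DMSO and at 64.8 and 76.1 CPM with inhibitor (0.58 ± 0.25 SE). Zmat3 was at 10.9 and 21.0 CPM with DMSO and at 23.9 and 24.8 CPM with inhibitor (0.61 ± 0.33 SE). For this pair the DMSO pools differed most from each other: without DMSO replicate 2 the log2 fold changes were 1.04 for Ccng1 and 1.17 for Zmat3, and at the other end of the alternatives 0.23 and 0.21. Trp53inp1 was at 68.7 and 74.2 CPM with DMSO and at 119.7 and 118 CPM with inhibitor (0.74 ± 0.16 SE). Sesn2 was at 92.3 and 108.8 CPM with DMSO and at 97.1 and 100.2 CPM with inhibitor (-0.03 ± 0.17 SE), inside the range of its controls.

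Of the 10 members, 8 had a positive log2 fold change in the embryos, with a median of 0.60, and 7 did not overlap between the groups, all of them higher. Over all genes tested, 20.1% were separated upward and 19.2% downward, with a median of 0.01. These counts come from the contrast that chose the members. Dot1l itself was at 278 and 256 CPM with DMSO and at 221 and 214 CPM with inhibitor (log2 fold change -0.29 ± 0.13 SE, adjusted p = 0.582, edgeR). An inhibitor of the enzyme need not lower its transcript, so this level does not check the treatment.

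**Figure D2:**
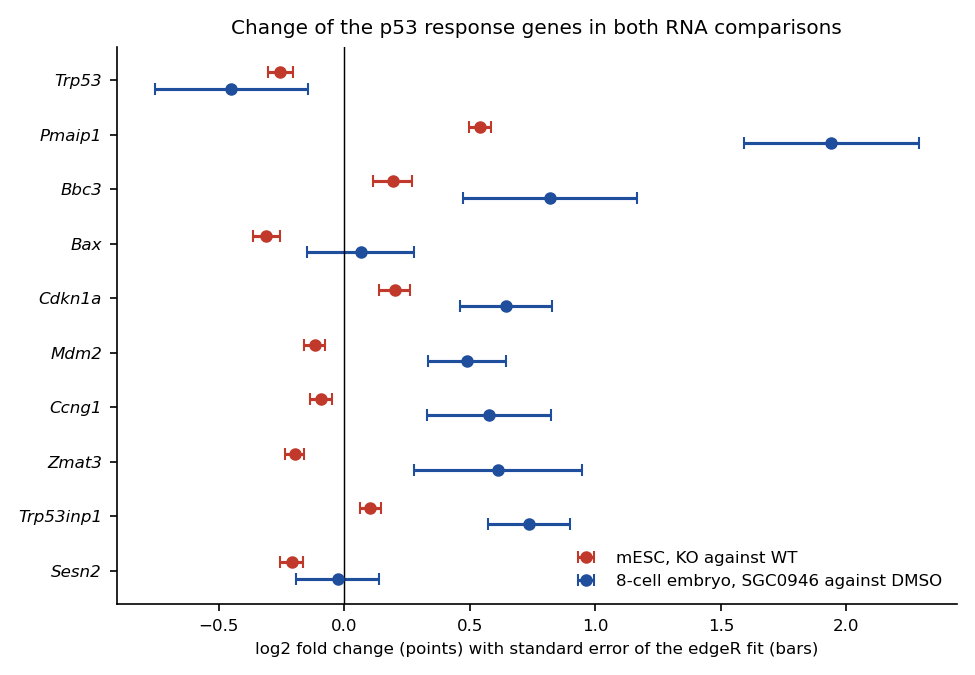
Log2 fold change of each member in knockout against wild-type stem cells and in SGC0946 against DMSO embryos, with bars of 1 standard error from edgeR. Pmaip1 has the largest value in both, 0.54 and 1.94, and Mdm2, Ccng1 and Zmat3 lie on opposite sides of 0.

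Pmaip1, Bbc3, Cdkn1a and Trp53inp1 (4 members) were higher in every knockout library than in every wild-type library and in every inhibitor pool than in every DMSO pool. Mdm2, Ccng1 and Zmat3 (3 members) were lower in every knockout library and higher in every inhibitor pool. Of the 12380 genes tested in both tables, 7.55% showed the first pattern and 6.43% the second. The members' counts rest in part on the embryo contrast that chose them, so nothing is read from these shares. The 2 contrasts share no samples, and they differ in cell type, in the way Dot1L was perturbed and in library preparation. After subtracting each table's mean, the log2 CPM of Pmaip1 over the 9 RNA libraries was most like that of Hjurp (Pearson r = 0.978), Dazl (0.977), Eogt (0.976), Ttc9c (0.974) and Ralgapa1 (0.972) among 7820 genes. The libraries fall into 4 groups, so these values describe group differences as much as single libraries. The embryo pools are among them, so the likeness of the members rests in part on the contrast that chose them. Nothing is read from it. Trp53inp1 (r = 0.958, rank 17), Cdkn1a (0.937, rank 41) and Bbc3 (0.917, rank 75) were the members most like Pmaip1. Mdm2 stood at 0.821, Ccng1 at 0.623 and Zmat3 at 0.552. Bax (-0.0577), Sesn2 (-0.317) and Trp53 (-0.619) were least like it.

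Peaks of lysine 79 methylation lay over the bodies of the members in wild-type stem cells. Whether either antibody also binds the other mark was not assessed here, so the values of the marks may not be separate. Overlapping peaks of both wild-type lists were joined into regions, called shared here, which span the full extent of the joined peaks. Their cover can therefore exceed the part marked in both libraries, and that of either list alone. Such a region overlapped all 10 genes for H3K79me2 and 7 for H3K79me3, all but Ccng1, Zmat3 and Trp53inp1. Among 18574 genes, 42.5% had such an H3K79me2 region and 10.3% an H3K79me3 region. The shares were higher among expressed genes: of the 7597 genes at or above 19.8 CPM, about the level of the lowest member, they were 83.3% and 20.5%. The H3K79me2 regions covered a median of 55.8% of the members' bodies (20.9 to 71.1%). The median was 23.9% over all marked genes and 19.0% over those 7597 genes, marked or not. H3K79me3 covered a median of 19.0% over all 10 members, the unmarked ones included (0 to 26.9%). The median was 5.85% over marked genes only and 0% over the 7597 genes, marked or not. Gene bodies differ in length, so these coverages are descriptive.

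**Figure D3:**
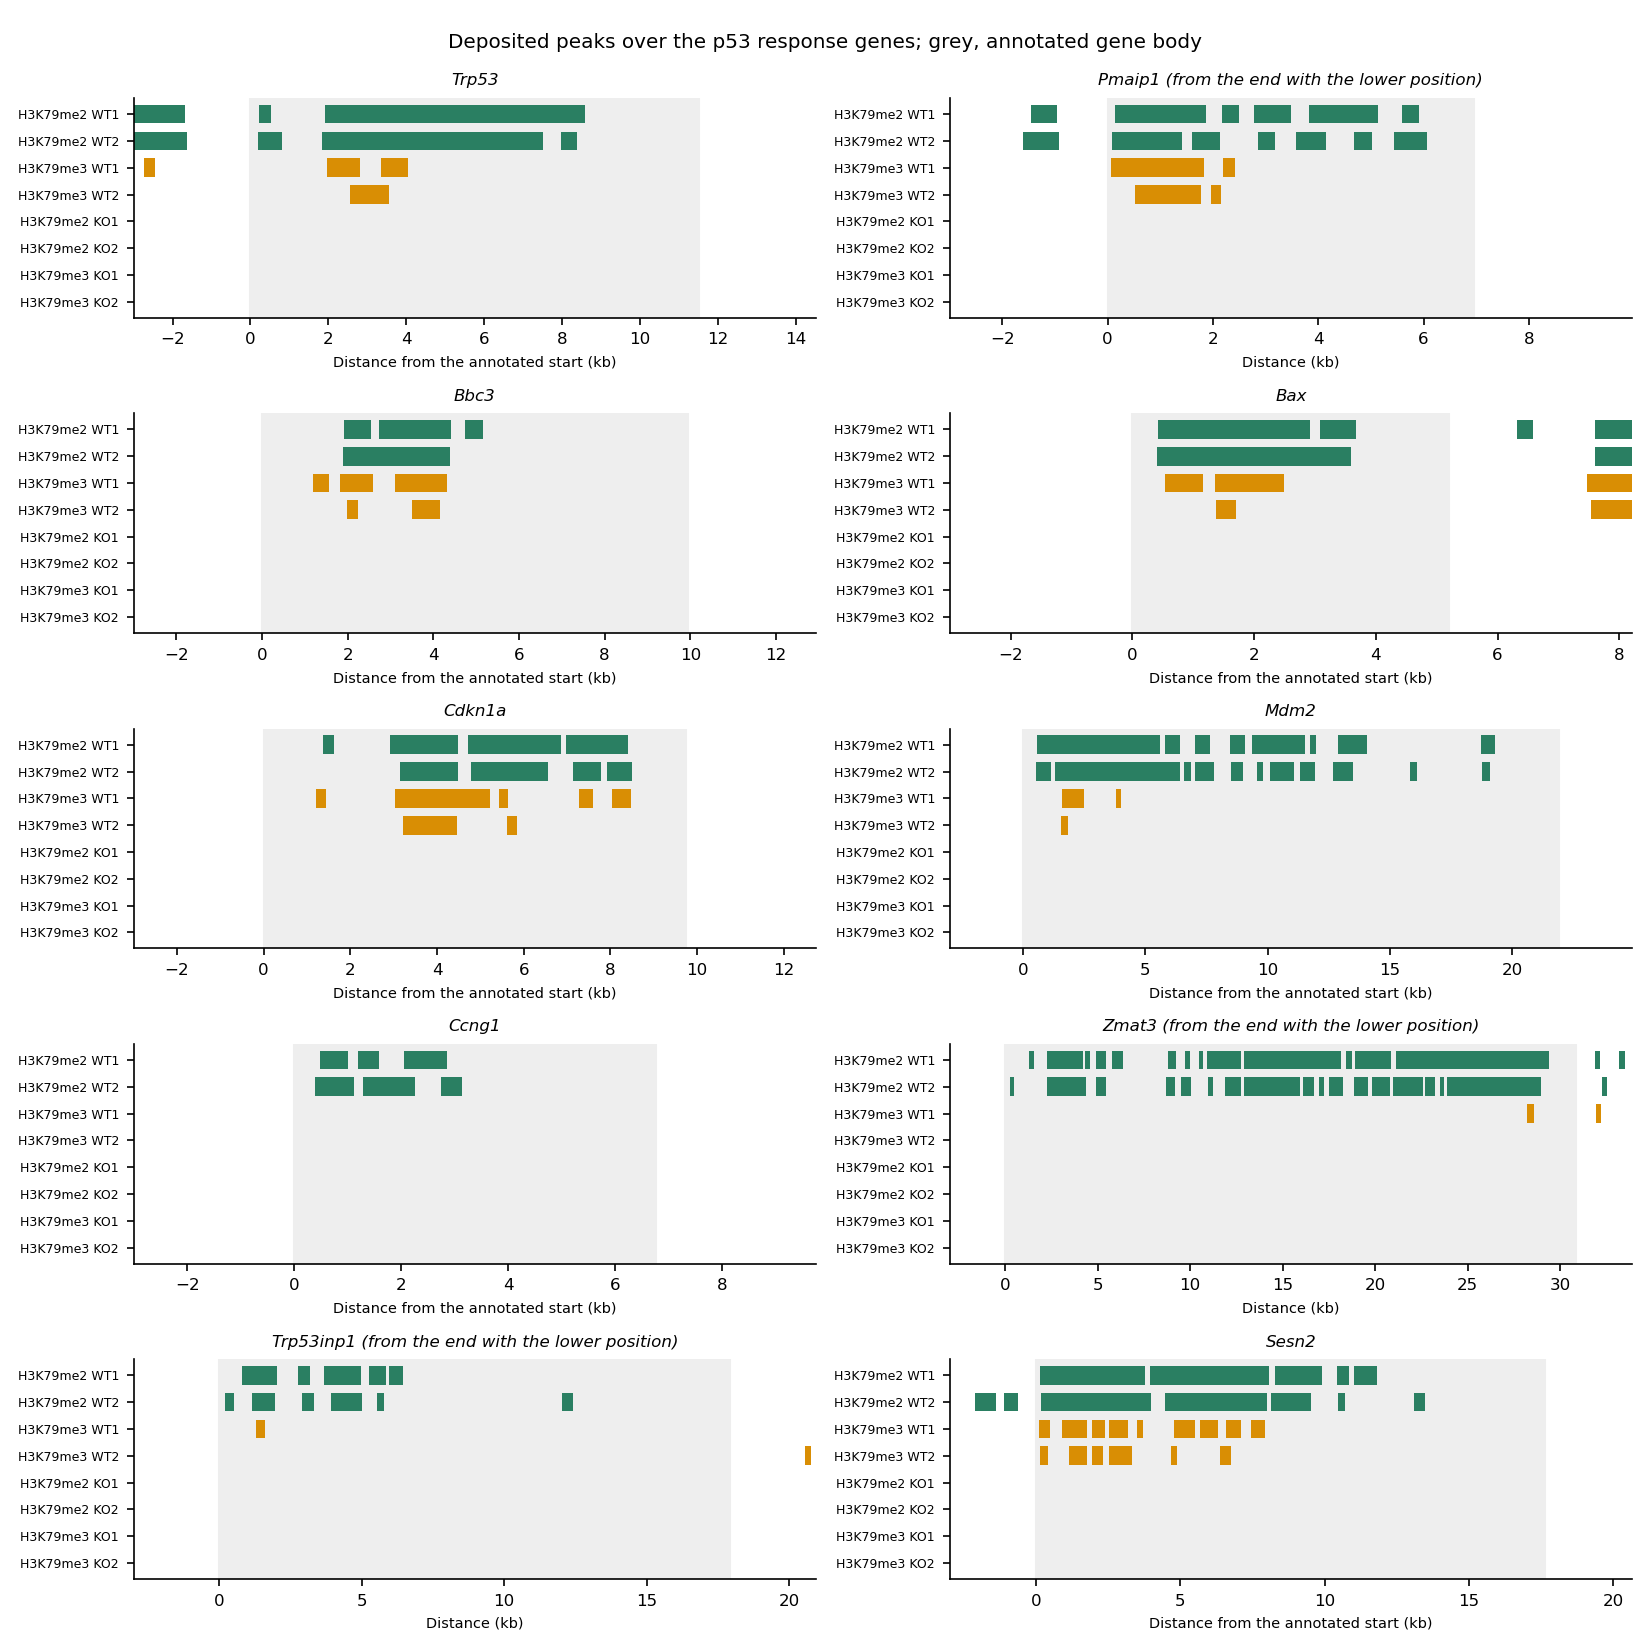
H3K79me2 and H3K79me3 peaks of the wild-type stem cell libraries along the members, and of the knockout libraries, drawn as bars by distance in kb from the annotated start, or from the end with the lower position for Pmaip1, Zmat3 and Trp53inp1. Regions joined from overlapping peaks of both wild-type lists cover up to 71.1% of a member's body for H3K79me2 and up to 26.9% for H3K79me3. Ccng1 has no H3K79me3 peak in either list.

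Pmaip1 (chromosome 18, 66458604 to 66465558 on mm10) had shared regions of H3K79me2 over 71.1% and of H3K79me3 over 25.3% of its body. Its strongest H3K79me2 peak reached 6.25-fold and 4.85-fold enrichment in wild-type replicates 1 and 2, and its strongest H3K79me3 peak 6.19-fold and 5.51-fold, as the authors' peak caller gave them, against a control that is not given in the sources used here. Zmat3 (chromosome 3, 32334792 to 32365665) had 70.2% of its body under H3K79me2. In each single list its cover was above that of Pmaip1, at 72.1% against 63.0% in replicate 1 and 61.3% against 53.4% in replicate 2. It had 1 small H3K79me3 peak in wild-type replicate 1, of 349 bp, and none in replicate 2. Trp53 (chromosome 11, 69580348 to 69591873, plus strand) was covered over 64.1% by H3K79me2 and 18.2% by H3K79me3. Bax (chromosome 7, 45461695 to 45466903, minus strand) was covered over 62.8% and 21.7%. The H3K79me3 peaks of the single lists covered 13.3% and 8.77% of Trp53 in replicates 1 and 2, and 33.8% and 6.37% of Bax. Of these genes with broad H3K79me2 cover, Pmaip1 rose in the knockout and Trp53, Bax and Zmat3 fell. Because all 10 members carried H3K79me2, nothing about mark and direction is read from them. Over all genes, the median log2 fold change was -0.06 with an H3K79me2 region and 0.11 without. Whether the mark goes with direction was not tested.

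Sesn2 (chromosome 4, 132492804 to 132510456, minus strand) carried the strongest H3K79me2 enrichment of replicate 1 among the members, 10.5-fold there and 9.89-fold in replicate 2, over 57.4% of its body. Trp53 reached 11.3-fold in replicate 2 and 6.07-fold in replicate 1. Mdm2 (chromosome 10, 117688875 to 117710758, minus strand) was covered over 54.2% by H3K79me2 but over 4.25% by H3K79me3. The members at the low end of H3K79me2 cover were Ccng1 (chromosome 11, 40748552 to 40755309, minus strand; 39.7%), Bbc3 (chromosome 7, 16308398 to 16318334, plus strand; 25.4%) and Trp53inp1 (chromosome 4, 11156441 to 11174379; 20.9%). Zmat3 overlaps the long noncoding RNA 4930429B21Rik by 177 bp, and no other member overlaps an annotated gene.

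Cdkn1a (chromosome 17, 29090979 to 29100722, plus strand) carried the strongest H3K79me3 peak of the members. The peak of replicate 1 (chr17:29093998-29096195) was enriched 10.1-fold with a −log10 q of 39.7 and scored above 99.6% of the peaks in its list. The peak of replicate 2 (chr17:29094200-29095437) was enriched 9.53-fold with a −log10 q of 23.3 and scored above 98.1%. Their summits lay 907 and 1190 bp after the downstream start and 3697 and 3980 bp after the upstream one. The nearest edges of the regions shared by both lists lay 136 bp (H3K79me2) and 229 bp (H3K79me3) after the downstream start, and 2926 and 3019 bp after the upstream start. In replicate 1 alone, smaller peaks of both marks also lay between the starts. The window of the upstream start that holds the p53 site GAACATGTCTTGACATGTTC had no shared region of either mark over it, nor did that of Ccng1. Of the members with a window, Bbc3 alone had regions that reached into it.

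The other genes of the pathway were described in 4 lists. Of 31 further p53 targets tested in the stem cells, 12 rose and 9 fell (median log2 fold change 0.01, against 0.00 over all genes). Dram1, a gene of autophagy, rose by 1.18 (adjusted p = 3.1e-04, edgeR), the death receptor gene Fas by 0.79 (0.00296) and Abhd4 by 0.62 (0.0145). Eda2r, a receptor of the TNF family, changed by -1.27 (6.1e-10), the secreted stress factor Gdf15 by -1.08 (6.1e-05) and the adenylate kinase gene Ak1 by -0.88 (3.4e-08). The further targets, like the members, moved both ways. For this list and those that follow, the shares over all genes are the 22.3% higher and 21.4% lower given above. Of 19 regulators of p53, 3 rose and 8 fell (median -0.08). Those that rose, the acetyltransferase gene Kat5 (0.17) and the damage kinases Atr (0.16) and Chek2 (0.15), changed little. Cdkn2a, whose Arf product inhibits Mdm2, changed by -0.60, the p53 relative Trp73 by -0.57 and the coactivator Crebbp by -0.45.

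Of 12 further genes of the BCL2 family, 2 rose and 1 fell in the stem cells (median 0.08). The BH3-only gene Bmf rose by 0.74 (adjusted p = 8.4e-06, edgeR) and the survival gene Bcl2l2 by 0.27 (0.0112), and Bak1, the relative of Bax, fell by 0.19 on the log2 scale (0.0109). Of 19 genes of the integrated stress response, whose factor ATF4 can also induce Pmaip1, 5 rose and 4 fell (median 0.04). Ddit4 (0.74), Vldlr (0.74) and Ddit3 (0.55) rose, and Atf5 (-0.58), Cth (-0.52) and Eif2ak2 (-0.34) fell. Without knockout replicate 1 the changes of Ddit4 and Abhd4 were 0.48 (adjusted p = 9.3e-07) and 0.33 (0.213), and the calls of Trp73 (0.0552), Bcl2l2 (0.0919) and Bak1 (0.0513) were lost. The call of Abhd4 was also lost without wild-type replicate 2 (0.0613), that of Bak1 without wild-type replicate 1 (0.0631) or with upper-quartile scaling (-0.13, 0.0656), and that of Chek2 without wild-type replicate 3 (0.0704) or knockout replicate 2 (0.0526). Kat5 lost its call with DESeq2 (0.139), with no filter on low counts (0.0585) and when any 1 library other than wild-type replicate 3 was left out (0.0727 to 0.117).

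In the embryos 0 genes of these lists were called in edgeR. An unadjusted p under 0.05 was reached by 8 of 28 further targets, 1 of 20 regulators, 2 of 9 BCL2 family genes and 1 of 18 stress response genes. Over all genes tested, 1169 of 14351 reached it. Among 28 further p53 targets tested, 22 log2 fold changes were positive and 6 negative (median 0.24, against 0.01 over all genes), and 14 were separated upward and 1 downward, where 20.1% and 19.2% of all genes were. Those with the lowest p were Polk, a DNA polymerase that copies past lesions (0.99, adjusted p = 0.385, edgeR), and the kinase gene Plk2 (0.65, 0.441). The 20 regulators leaned the other way, with 3 positive and 17 negative values (median -0.15), where 51.4% of all genes had a positive value. Of these regulators, 1 was separated upward and 7 downward. Among them were Rpl11, a ribosomal protein that can bind Mdm2 (-0.29, adjusted p = 0.566, edgeR), and the phosphatase gene Ppm1d (-0.81, 0.676). The 9 BCL2 family genes had 4 positive and 5 negative values (median -0.13), and 1 was separated upward and 3 downward. Bcl2l11, the BH3-only gene of Bim, stood at 1.02 (adjusted p = 0.407, edgeR) and the survival gene Bcl2l1 at -0.54 (0.607). Over the alternatives Bcl2l11 ran from 0.49 to 1.41, Bcl2l1 from -0.80 to -0.23, Ppm1d from -1.33 to -0.42 and Rpl11 from -0.40 to -0.17. The 18 stress response genes had 12 positive and 6 negative values (median 0.10, from -0.49 to 2.16), and 5 were separated upward and 3 downward. Psat1 (-0.41, adjusted p = 0.382, edgeR) and Cth (-0.25, 0.688) were named for the lowest p, although most of the list was positive.

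**Figure D4:**
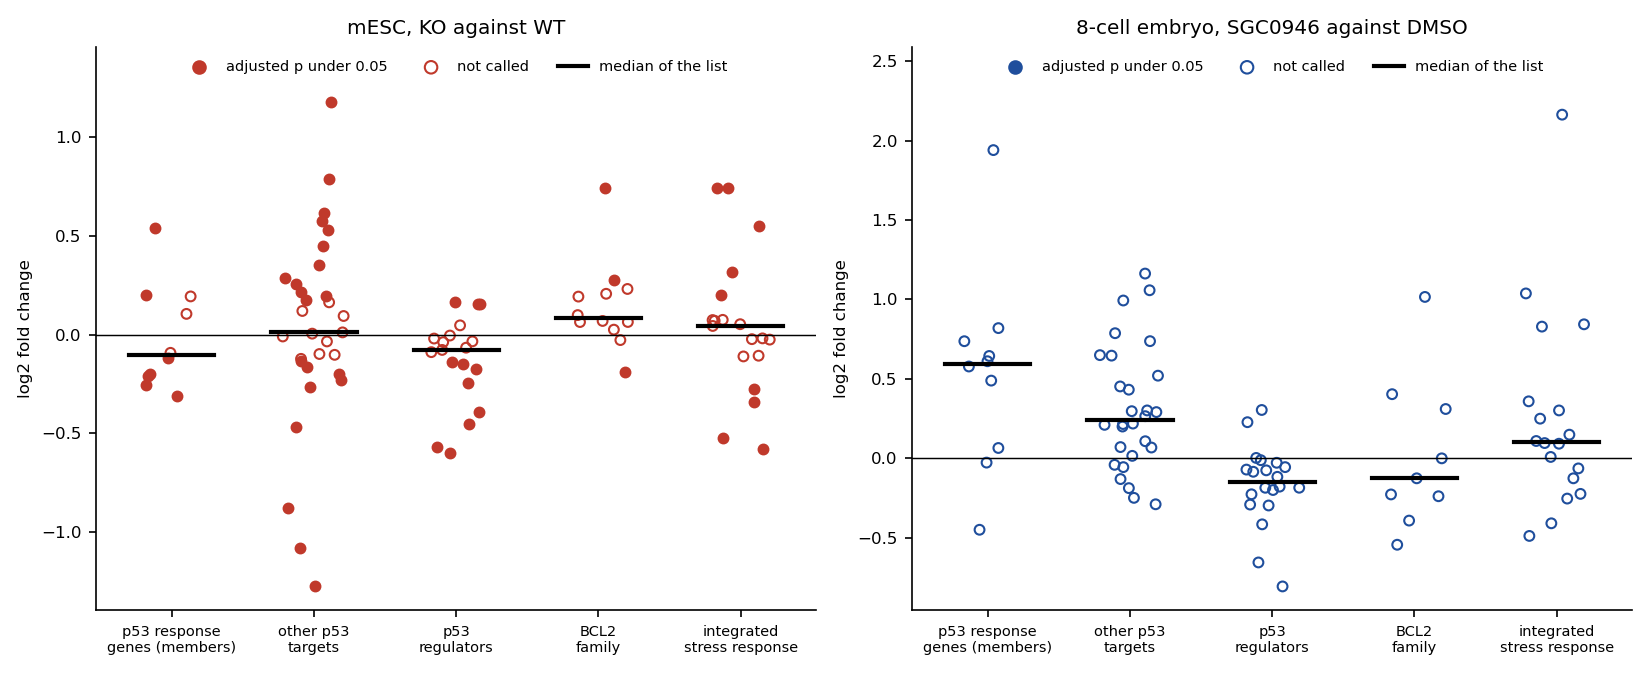
Log2 fold change of every tested gene of the members and of the 4 other lists, in stem cells and in embryos. Each point is a gene, filled where it passed an adjusted p under 0.05 in edgeR, and lines mark list medians, which are 0.60 for the members and 0.24 for the further p53 targets in embryos.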

How the data were processed

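RNA was measured in 5 stem cell and 4 embryo libraries, and H3K79me2 and H3K79me3 peaks in the stem cells. The deposited stem cell table holds expected counts per gene, estimated with kallisto per the submitters' processing notes, and was rounded to whole numbers; reads shared between transcripts or copies are split there by estimate. The deposited embryo table holds counts of reads per gene, from STAR and HTSeq per the same notes. The notes of 4 stem cell libraries also name STAR and HTSeq, and the stem cell values are not all whole numbers. Whether counting used strand is not given in the sources used here. The deposited peak files of the authors (Bowtie2 and MACS2 on mm10, per the submitters' processing notes) were called per library and hold for each peak a score, a fold enrichment, a −log10 p and a −log10 q, and the summit's offset. The notes give no versions. No symbol is given for 69 genes of the stem cells, at most 0.0163% of a library's counts.

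Each RNA table was fitted on its own with edgeR 4.0.16 in R 4.3.3 (filterByExpr, TMM scaling, quasi-likelihood test, Benjamini-Hochberg adjustment over all genes tested, adjusted p under 0.05). The fit was first tried on simulated data, where a minimum recovery of changed genes was required for the stem cells only. DESeq2 1.42.0, other scalings and filters, a replicate block and leaving out each library were alternatives. Adjusted p-values that DESeq2 gave as NA (6678 embryo genes) stayed NA. A gene was marked where a region formed from overlapping peaks of both wild-type lists overlapped its RefSeq body by at least 1 bp. Levels are CPM, which do not correct for gene length, so differences in level between genes were not interpreted. Minimum CPM values served only to set the expressed genes beside the peaks and the genes that could be named. The input libraries have no file used here.

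The members and gene lists were chosen with earlier results of these data known. Named were all members and Dot1l. From each other list and contrast up to 3 called genes with the largest rise and up to 3 with the largest fall were named, at a mean of at least 1 CPM and without overlap of the groups, or else the 2 with the lowest p. For Pmaip1 the 5 genes most like it were named, at a mean of at least 5 CPM in each table.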

Additional observations from a re-analysis of the deposited data

Results flagged for a closer look

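For 3 members every knockout stem cell library moved one way from wild type and every inhibitor embryo pool the other way from DMSO. Mdm2 had a log2 fold change of -0.12 in the stem cells and 0.49 in the embryos. Ccng1 had -0.093 and 0.58, and Zmat3 had -0.20 and 0.61. In the stem cells Ccng1 did not pass the test (adjusted p = 0.101, edgeR). Mdm2 lost its call with upper-quartile scaling (-0.05, 0.315) and when any 1 wild-type library was left out. Zmat3 kept its call there, and its embryo value ran from 0.21 to 1.17 over the alternatives. Over the 12380 genes tested in both tables, 6.43% were lower in every knockout library and higher in every inhibitor pool. The difference between the contrasts was not tested. They differ in cell type, in the way Dot1L was perturbed and in library preparation.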

How the results depend on the processing

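In the stem cells, 97 of the members' values under alternatives kept their direction and side of the threshold, 6 newly passed it and 7 no longer did, and the count of called members ran from 5 to 8. Called genes of the BCL2 family numbered 3 and ran from 1 (without knockout replicate 1) to 4 when 1 library was left out. In the embryos, 92 of the members' log2 fold changes moved by less than the replicate spread and 8 by more. Without SGC0946 replicate 2, Bbc3 stood at 0.51 and Bax at -0.03, and without DMSO replicate 2 Sesn2 stood at 0.10. The count of called embryo genes depended on the setting: 0 as reported, 126 with DESeq2, 111 with no filter on low counts and 23 with at least 10 counts in every library. Leaving out 1 pool gave 4 to 365 called genes, the most without SGC0946 replicate 2, where the lone pool is assumed to vary like the other group. The cause was not tested. With a replicate block, 8052 genes were called in the stem cells (8 members, with Bbc3 at 0.23, adjusted p = 0.0205) and 171 in the embryos. Deviations of same-numbered libraries correlated at -0.0448 and -0.0917 in the stem cells and 0.0686 in the embryos. In a group of 2 the deviations are exact opposites, so these values cannot decide whether same-numbered samples were handled together. H3K79me2 marked 10 members under each alternative and H3K79me3 6 to 9. Only 2 pools a group limit the embryo comparison.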

Other observations

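The 22 genes with a p53 full site in a promoter window were followed in both RNA tables. In the stem cells 10 of them were tested, and 2 rose, Cdkn1a and Mthfd1, an enzyme of folate metabolism (log2 fold change 0.24, adjusted p = 2.5e-04, edgeR), a share near the 22.3% of all genes called higher. The call of Cdkn1a was lost without knockout replicate 1 (adjusted p = 0.229), wild-type replicate 2 (0.0707) or wild-type replicate 3 (0.0698). The median over these 10 was -0.04. In the embryos 7 were tested, with a median of 0.21, and 0 were called. Cdkn1a, Ccng1 and Gtse1, which encodes a protein that binds p53, were separated upward there, and 0 of the 7 downward. Over all genes, 20.1% were separated upward and 19.2% downward. The rest overlapped between the groups: Calhm2 (log2 fold change 0.40), Rps27l (0.02), Mthfd1 (-0.16) and Sptbn4 (-0.63). Cdkn1a and Ccng1 are members chosen on that contrast. Gtse1 had a log2 fold change of 0.21 (adjusted p = 0.838, edgeR) in the embryos and 0.00 in the stem cells. 3 of the 22 genes are also in the lists above.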
